A study of Mus musculus with 8 samples.

Results

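The glucocorticoid receptor (GR) and RNA polymerase II (Pol2) were compared at the start sites of protein-coding genes in nuclei of mouse skeletal muscle, to ask which genes carried both, which carried GR without Pol2, and which carried Pol2 without GR. Chromatin immunoprecipitation with sequencing had been done on wild-type (WT) C57/Bl6J mice of 10 to 12 weeks. All groups shared this genotype, strain and age, and no treatment or sex is given in the sources used here. The GR library was made with an antibody against the C-terminal part of the receptor, and the Pol2 library with the antibody H-224. Both belonged with the same input library, Input1, as did H3K27ac and H3K4me1, while Ctcf and H3K4me3 belonged with Input2. There was 1 library per antibody, so nothing below measures variation between animals and no test between conditions was possible. Whether a library came from 1 mouse or from pooled mice is not given.

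A gene was placed in a class by whether the nearest base of a GR peak, and of a Pol2 peak, lay within 1 kb of a transcription start site (TSS) of any of its annotated transcripts. Of 21938 protein-coding genes on the nuclear chromosomes of build GRCm38 (mm10), 10984 fell in 1 of the 3 classes with a peak. There were 8849 genes with both, 662 with GR without Pol2 and 1473 with Pol2 without GR, and the remaining 10954 genes (49.9%) had neither. The GR list held 23188 peaks on nuclear chromosomes and the Pol2 list 20192, each with a median width of 212 bases. Both lists gave positions and no score, so the width of a peak is the only measure of its size. The tissue label fitted the markers of muscle fibres: of 10 fibre markers, 9 were in the class with both and 1 had Pol2 without GR, with a median of 86.9% of the gene lying under Pol2 peaks. All 4 liver markers and all 4 adipocyte markers had neither peak, as did 5 of 6 markers each of endothelial and immune cells. Longer lists were less uniform: 6 of 12 endothelial genes and 2 of 10 adipocyte genes had a peak. Of 6 fibro-adipogenic markers, 5 had both peaks. Muscle holds nuclei of several cell types, and fewer cells of a type and less binding per cell cannot be told apart.

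GR is held in the cytoplasm by chaperones until it binds a glucocorticoid hormone. It then enters the nucleus and binds DNA, either directly at the glucocorticoid response element (GRE), a pair of inverted short repeats, or through other proteins already on the chromatin. Pol2 transcribes all protein-coding genes, and commonly stalls just downstream of the TSS before it is released into the gene. In skeletal muscle, glucocorticoids are known for raising genes of protein breakdown and fuel storage, among them those for the ubiquitin ligases MuRF1 and atrogin-1.

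The sequences below show what GR peaks at start sites looked like where they held a GRE. They are 61-base stretches of the reference genome around the match, outside annotated exons and read in the direction of the gene, and the capitals mark the 13 letters that match the searched GRE, GNACA, 3 bases of any kind and TGTNC. The Lcn2 stretch (chr2:32388253-32388313, minus strand) lies just before the start of a gene in the class GR without Pol2. The Per1 (chr11:69099393-69099453, plus strand), Fkbp5 (chr17:28442396-28442456, minus strand), Dusp1 (chr17:26509463-26509523, minus strand) and Cdkn1a (chr17:29094676-29094736, plus strand) stretches lie in introns of genes of the class with both.
Lcn2: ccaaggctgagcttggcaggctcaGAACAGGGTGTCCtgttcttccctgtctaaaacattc
Per1: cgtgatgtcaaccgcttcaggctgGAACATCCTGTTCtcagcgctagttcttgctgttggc
Fkbp5: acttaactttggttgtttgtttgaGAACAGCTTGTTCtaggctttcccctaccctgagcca
Dusp1: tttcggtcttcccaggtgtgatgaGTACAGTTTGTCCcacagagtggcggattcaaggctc
Cdkn1a: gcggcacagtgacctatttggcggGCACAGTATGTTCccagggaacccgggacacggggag
Lcn2 encodes a secreted iron-siderophore carrier, Per1 a clock repressor, Fkbp5 a co-chaperone of steroid receptors, Dusp1 a phosphatase that turns off MAP kinases, and Cdkn1a the cell cycle inhibitor p21. These 5 genes were chosen after their values were seen, from the glucocorticoid-induced genes with a GRE in a GR peak at a start site. The centre of the Lcn2 match lay 31 bases upstream of a TSS, and the nearest Pol2 peak was 6123 bases from it. The Per1 match lay under a Pol2 peak, 475 bases downstream of the nearest TSS. The Fkbp5 match, at position -704 from the nearest TSS, lay 17845 bases from a Pol2 peak. The Dusp1 match, at -974, lay 278 bases from one, and the Cdkn1a match, at 925, lay 786 bases from one. So even within the class with both, a GRE near a TSS was not always under Pol2.

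A second set of sequences comes from 2 genes of the class Pol2 without GR. Its marked letters were in 18.2% of promoters of that class and 18.99% of promoters with both. They thus do not set the class apart from genes with both. The capitals mark CCGGAAG, letters bound by ETS factors, a family that acts at many housekeeping promoters. Rexo1 (chr10:80561689-80561749, minus strand) encodes an RNA exonuclease homologue, and Gmnn (chr13:24762084-24762144, minus strand) encodes geminin, which limits DNA replication to one round per cycle. They are the 2 genes of the class with the highest H3K4me3 enrichment among those with such a match before the TSS and outside annotated exons, and this choice too was made after the values were seen.
Rexo1: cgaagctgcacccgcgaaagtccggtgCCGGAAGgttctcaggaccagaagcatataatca
Gmnn: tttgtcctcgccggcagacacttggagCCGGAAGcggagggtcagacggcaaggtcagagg
The authors' H3K4me3 fold over the control was 64.6 at Rexo1 and 60.2 at Gmnn. The median was 28.9 over genes with Pol2 without GR and 39.8 over genes with both peaks, so these 2 are not typical of their class. The nearest GR peak was 15652 bases from a TSS of Rexo1 and 38650 from one of Gmnn. Both of these promoters thus carried a strong H3K4me3 peak and Pol2 with no GR peak close by.

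GR and Pol2 occupied largely the same start sites. GR lay at 9511 genes (43.4%) and Pol2 at 10322 genes (47.1%). The class with both held 40.3% of all genes (exact Clopper-Pearson 95% interval 39.7 to 41.0%), GR without Pol2 held 3.02% (2.80 to 3.25%) and Pol2 without GR held 6.71% (6.39 to 7.05%). The sizes of the single-peak classes depended on peak width. With just the widest 50% of GR peaks, GR without Pol2 held 225 genes and Pol2 without GR 3773, and with just the widest 50% of Pol2 peaks they held 3168 and 500, so which class is larger turned round. Pol2 was present at 93.0% of genes with GR and at 11.9% of genes without GR. GR was present at 85.7% of genes with Pol2 (85.0 to 86.4%) and at 5.70% of genes without it. Among genes with H3K4me3, the mark of promoters, Pol2 was at 93.9% of genes with GR and at 35.3% of genes without. GR was then at 86.0% of genes with Pol2 and at 17.9% of genes without. The intervals cover the counting error of genes taken as independent. Neighbouring genes can share a peak: the class with both rested on 10825 distinct GR peaks and 12297 distinct Pol2 peaks, GR without Pol2 on 711 GR peaks, and Pol2 without GR on 1625 Pol2 peaks.

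Few genes of the classes with a single peak were near misses at the limit of 1 kb. In genes with GR without Pol2 the nearest Pol2 peak was a median of 38125 bases from a TSS, and it was over 25 kb away at 61.9% of them. In genes with Pol2 without GR the nearest GR peak was a median of 21525 bases away, and over 25 kb away at 45.9%. The missing peak lay between 1 and 2 kb away at 19 genes with GR without Pol2 and at 86 genes with Pol2 without GR. Just inside the limit for Pol2 were Thbs3 at 987 bases, Ccdc146 at 982 and Psd at 980, and just outside it were Ddias at 1006, Dtx4 at 1014 and Pitx3 at 1017. For GR, Gm12216 at 996 bases, Tspan5 at 994 and Sft2d3 at 987 were just inside, and Hyal1 at 1010, Gm10647 at 1019 and Mst1 at 1021 just outside.

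Size separated the shared start sites from the unshared ones. The widest GR peak at a start site had a median of 289 bases in genes with both (quartiles 210 to 403) and of 183 bases in genes with GR without Pol2 (144 to 240). The widest Pol2 peak had a median of 300 bases in genes with both (205 to 426) and of 180 bases in genes with Pol2 without GR (138 to 249). Of genes in the narrowest 10% by GR peak, 78.1% had Pol2, and of those in the widest 10%, 99.7% had it. Of genes in the narrowest 10% by Pol2 peak, 56.5% had GR (53.4 to 59.6%), and of those in the widest 10%, 98.5% (97.5 to 99.1%). How far a peak near the detection limit of one library was missed in the other was not tested, and the depth of the libraries is unknown.

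**Figure D1:**
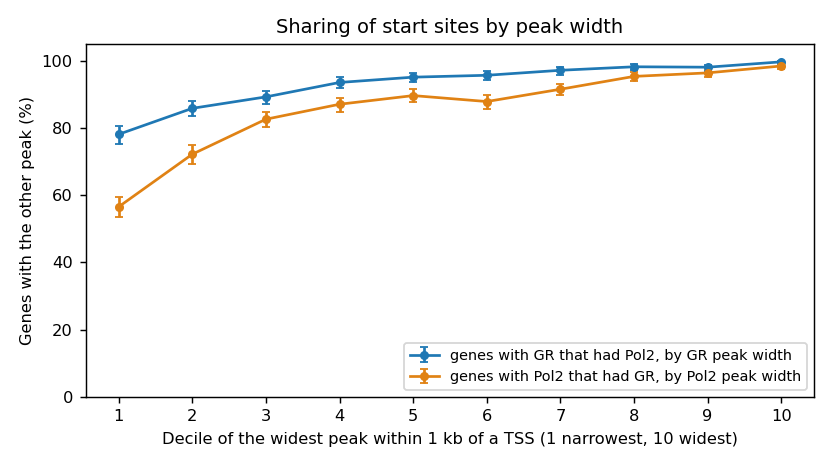
Percent of genes with a GR peak that also had a Pol2 peak (blue, by decile of the widest GR peak) and percent of genes with a Pol2 peak that also had a GR peak (orange, by decile of the widest Pol2 peak), with exact 95% intervals. The share with GR was 56.5% in the narrowest Pol2 decile and 98.5% in the widest, and the share with Pol2 was 78.1% in the narrowest GR decile and 99.7% in the widest.

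The strength of H3K4me3, which the classes did not use, followed the same order. The highest authors' H3K4me3 fold at a TSS had a median of 39.8 in genes with both, 20.5 in genes with GR without Pol2, 28.9 in genes with Pol2 without GR and 10.5 in genes with neither, over genes with such a peak. Among genes with H3K4me3 sorted by fold, 5.85% of the lowest decile and 93.7% of the highest were in the class with both. GR without Pol2 was most frequent in the second-lowest decile, at 9.34% of genes, and Pol2 without GR in the next one up, at 17.1%. In the highest decile these classes held 0.668% and 5.12% of genes.

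The start sites with a single peak differed in their other chromatin marks. H3K27ac, an acetyl mark of active promoters and enhancers, lay at the start sites (within 1 kb) of 99.4% of genes with both, 69.5% of genes with GR without Pol2 (65.8 to 73.0%), 91.6% of genes with Pol2 without GR (90.05 to 92.9%) and 8.17% of genes with neither. Over all genes it was at 52.4%. H3K4me3 was at 99.7% of genes with both, 87.3% with GR without Pol2, 97.8% with Pol2 without GR, 24.1% with neither and 61.5% of all genes. H3K4me3 without H3K27ac marked 22.8% of genes with GR without Pol2, 6.92% of those with Pol2 without GR, 0.610% of those with both and 16.5% of those with neither. Among genes with H3K4me3, H3K27ac was missing at 151 of 578 with GR without Pol2 and at 1811 of 2643 with neither. Genes with GR and no Pol2 were thus the ones among the 3 classes that most often lacked the acetyl mark. This H3K27ac difference, GR without Pol2 minus Pol2 without GR, was -22.1 percentage points and shrank to -5.92 when just the widest 50% of Pol2 peaks counted.

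H3K4me1 and CTCF gave a different order. H3K4me1, a mark of enhancers that also flanks promoters, was at 95.6% of genes with both, 95.3% with GR without Pol2, 90.3% with Pol2 without GR, 36.6% with neither and 65.8% of all genes. CTCF, a protein that anchors chromatin loops, was at 13.4% of genes with both (12.7 to 14.1%), 18.3% with GR without Pol2 (15.4 to 21.4%), 6.59% with Pol2 without GR (5.37 to 7.97%) and 2.30% with neither. Over all genes CTCF was at 7.54%. Among the single-peak classes, GR start sites therefore held CTCF at a higher share than Pol2 start sites, by 11.7 percentage points. That difference lay between 8.10 and 12.4 points in the 10 alternatives computed for it. The CTCF and H3K4me3 lists were made against another input than the GR and Pol2 lists, and antibody and input cannot be told apart.

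**Figure D2:**
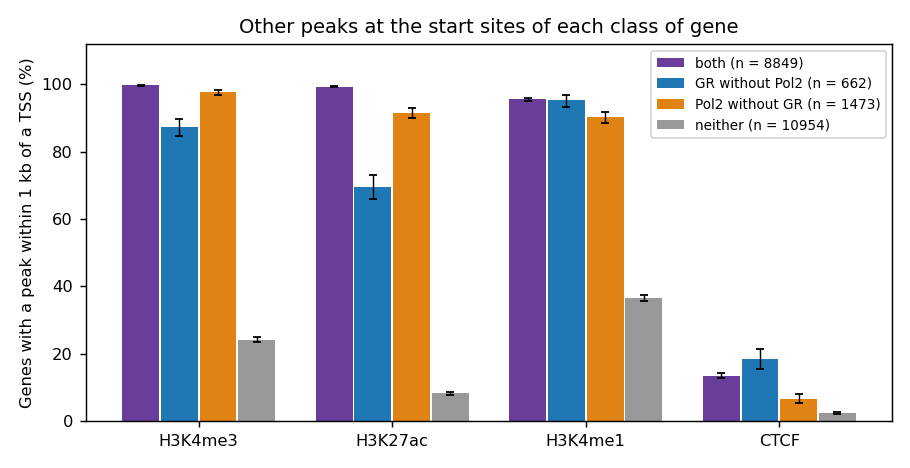
Percent of genes in each class with an H3K4me3, H3K27ac, H3K4me1 or CTCF peak within 1 kb of a TSS, with exact 95% intervals over genes. H3K27ac was lower at genes with GR without Pol2 (69.5%) than at genes with Pol2 without GR (91.6%), and CTCF was higher (18.3% against 6.59%).

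GR and Pol2 peaks at the same gene lay on top of each other, with GR slightly upstream. In the class with both, a GR peak and a Pol2 peak shared at least 1 base at 8601 of 8849 genes (97.2%). The midpoint of the GR peak was a median of 55 bases from that of the closest Pol2 peak (quartiles 25 to 108), and it lay upstream in the direction of transcription at 58.8% of genes (57.8 to 59.9%). Relative to the nearest TSS, GR midpoints had a median position of -25 bases and 64.5% were upstream. Pol2 midpoints had a median of -1 and 50.7% were upstream. Where each peak stood alone the offset was larger: GR midpoints in genes with GR without Pol2 had a median of -39 bases with 66.04% upstream, and Pol2 midpoints in genes with Pol2 without GR had a median of 9.5 bases with 41.0% upstream. These offsets are smaller than the peaks are wide.

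**Figure D3:**
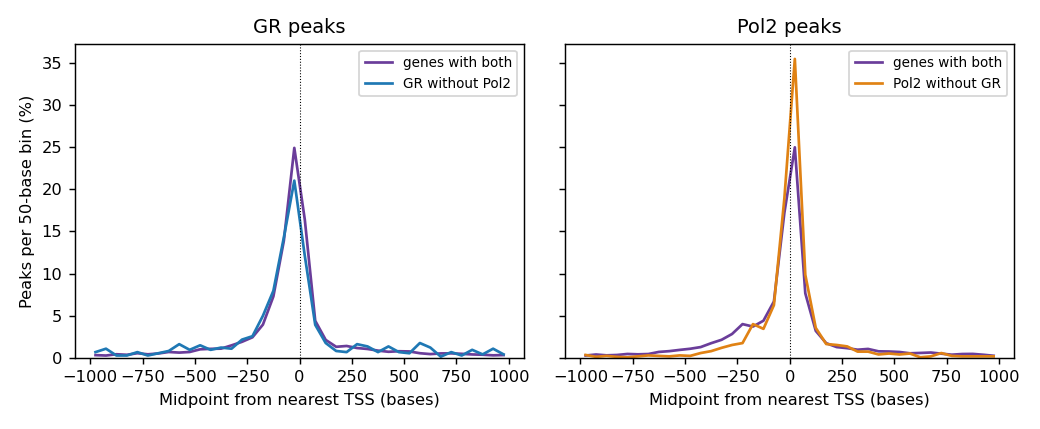
Distribution of GR peak midpoints (left) and Pol2 peak midpoints (right) around the nearest TSS in bins of 50 bases, with negative positions upstream. GR was highest in the bin just upstream of the TSS, with 24.9% of peaks in genes with both and 21.02% in genes with GR without Pol2, and Pol2 in the bin just downstream, with 24.98% in genes with both and 35.5% in genes with Pol2 without GR.

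The letters of the GRE were rarer under GR at shared start sites than under other GR peaks. In windows of 200 bases centred on GR peaks, the GRE as spelled above, which reads the same on both strands, was found in 0.896% of GR peaks at genes with both (0.727 to 1.09%), in 3.13% at genes with GR without Pol2 (1.97 to 4.70%) and in 9.96% of GR peaks over 1 kb from any TSS. Over all GR peaks the share was 5.52%. Within 1 kb of a TSS, a GR peak that overlapped a Pol2 peak held the GRE in 0.443% of cases and one that overlapped none in 3.76%. Away from start sites these shares were 4.74% on Pol2 peaks and 11.3% off them. GR peaks off Pol2 thus held the GRE at a higher share in both places. A match describes letters and not a binding site.

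Promoter sequence was read from 250 bases before to 50 after the TSS at the 5' end of the gene. Its ETS letters separated GR without Pol2 from the classes with Pol2. CCGGAAG, searched on both strands, was in 18.99% of promoters of genes with both (18.2 to 19.8%), 7.25% of those with GR without Pol2 (5.39 to 9.50%), 18.2% of those with Pol2 without GR (16.3 to 20.3%) and 10.8% of all promoters. The same order was seen for AAGATGGCG, letters bound by YY1, at 3.36%, 0.755% and 2.78% in the 3 classes and 1.70% of all promoters. For GCGCA followed directly by TGCGC, bound by NRF1, a factor of genes for mitochondria, the shares were 2.43%, 0.453% and 1.56%, against 1.22% of all promoters. With GR without Pol2, the YY1 share rested on 5 of 662 genes (0.246 to 1.75%) and the NRF1 share on 3 (0.0936 to 1.32%). Both intervals include the share of all promoters. TATAAA was in 6.45% of promoters with both, 7.70% with GR without Pol2, 11.3% with Pol2 without GR and 12.6% of all promoters. Promoters with both peaks were the richest in CpG: the ratio of observed to expected CpG had a median of 0.779 with both, 0.666 with GR without Pol2, 0.665 with Pol2 without GR and 0.246 with neither. The CpG ratio thus did not separate the 2 single-peak classes, while the ETS letters did. Median GC was 59.8% with GR without Pol2 and 56.7% with Pol2 without GR.

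Genes that glucocorticoids induce in many tissues were nearly all in the class with both. Of 39 such genes, 37 had both peaks, 1 had GR without Pol2 and 1 had neither, while 40.3% of all genes had both. GR was at 85.7% of all genes with Pol2. They had a median of 6 GR peaks within 25 kb of a TSS, while the median over all genes was 1, and Pol2 peaks covered a median of 6.93% of the gene, while the median over all genes was 0%. The 6 with the most GR peaks were Fkbp5 with 28, Txnip with 21, Dusp1 with 19, Trim63 with 16, and Per1 and Gadd45g with 12 each. Txnip encodes an alpha-arrestin that restrains glucose uptake, Trim63 the ubiquitin ligase MuRF1, and Gadd45g a stress-response protein. Their Pol2 coverage ran from 4.63% at Fkbp5 and 6.93% at Dusp1 through 34.7% at Per1 and 92.7% at Trim63 to 100% at Txnip and Gadd45g. Coverage is a share of the gene span, which was 118434 bases at Fkbp5 and 56539 at Dusp1, but 3927 at Txnip and 1791 at Gadd45g. The widest Pol2 peak at a TSS was 4838 bases at Dusp1 and 3889 at Gadd45g. Many GR peaks thus went with both small and complete coverage, and small coverage of a long gene did not mean a narrow Pol2 peak. Lcn2 was the member with GR without Pol2: its GR peak at the TSS was 162 bases wide, and it had 8 GR peaks within 25 kb, no Pol2 on the gene and a nearest Pol2 peak 3845 bases from a TSS. Tat, which encodes the liver enzyme tyrosine aminotransferase, had neither, and its nearest GR and Pol2 peaks were 121742 and 89051 bases away.

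Genes of protein breakdown, of GR's own machinery and of Pol2 release all carried both. This was so for 23 of 23 genes of ubiquitin ligation and autophagy, 19 of 19 genes for GR chaperones and coregulators and 20 of 20 genes of Pol2 pausing and elongation. Over all genes, 40.3% had both. All members of these lists had Pol2, and of all genes with Pol2, 85.7% had GR. The median numbers of GR peaks within 25 kb were 3, 4 and 3 in these lists, while the median over all genes was 1. Of 12 genes for core subunits of Pol2, 11 had both and Polr2c had Pol2 without GR, with a nearest GR peak 9465 bases away. Of 20 genes for cytosolic ribosomal proteins, 19 had both, and Rpl4 had Pol2 without GR, with a GR peak 2080 bases away. Both exceptions had narrow Pol2 peaks for their list: 166 bases at Polr2c, where the list median was 298.5, and 231 bases at Rpl4, where it was 338.5.

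The metabolic, clock and muscle lists were similar, with a few exceptions. Over all genes, 40.3% had both, 3.02% had GR without Pol2, 6.71% had Pol2 without GR and 49.9% had neither. Among genes with Pol2, 85.7% had GR. Of 20 genes of glycolysis and glycogen, 19 had both, and Pgk1, a glycolytic kinase gene on the X chromosome, had Pol2 without GR. Of 21 genes of fatty acid oxidation and uptake, 19 had both. Cd36, a fatty acid transporter gene, and Ppargc1a, which encodes the coactivator PGC-1alpha, had Pol2 without GR, although Ppargc1a had 4 GR peaks within 25 kb. Of 19 clock genes, 18 had both and Npas2, a partner of BMAL1, had GR without Pol2. Of 23 insulin and IGF genes, 19 had both; Igf1, a muscle growth factor gene, had GR without Pol2, and Tsc2, which restrains mTOR, and Mstn, which encodes the growth inhibitor myostatin, had Pol2 without GR. Igf1 had a GR peak of 123 bases, the narrowest width among all GR peaks, and its nearest Pol2 peak was 285646 bases away. Of 18 myogenic factors, 14 had both.

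Genes of the fast or common sarcomere had large Pol2 coverage, and those of the slow sarcomere did not. Of 26 genes of the fast or common sarcomere, 24 had both and none had neither, while 40.3% of all genes had both and 49.9% had neither. GR was at 85.7% of all genes with Pol2, as all 26 had. The median Pol2 coverage was 63.6% for the fast or common list, with at least 50% of the gene covered in 16 of 26, while 0.383% of all genes were covered to that extent. Of 12 slow sarcomere genes, 3 had both, Myoz2 had Pol2 without GR and 8 had neither, with a median coverage of 0%, which is also the median over all genes. The counts of the slow list were thus not far from the shares over all genes. The exceptions among fast genes were Myh1 and Myh2, myosin heavy chain genes of the 2X and 2A fibre types, which had Pol2 without GR. Pol2 covered 33.1% of Myh1 and 0.744% of Myh2, and the nearest GR peaks were 4381 and 29644 bases away. Myh4, the 2B myosin gene in the same cluster, was covered completely by a Pol2 peak of 27831 bases, had both, and had a widest GR peak of 139 bases at its TSS. These myosin genes are close copies of one another, so reads can be shared between them.

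Inflammatory, synaptic and developmental genes were spread over all 4 classes. Over all genes, 40.3% had both and 49.9% had neither, and the inflammatory and synaptic counts lay near these shares. Of 22 inflammatory and immediate early genes, 11 had both, and 7 had neither, among them Il6 and Il1b. Cxcl1, a chemokine gene, and Relb, an NF-kB subunit gene, had GR without Pol2. Tnf, a cytokine gene, and Icam1, an adhesion molecule gene, had Pol2 without GR. At Relb the GR peak was 480 bases wide, and the nearest Pol2 peak was 23761 bases from a TSS. At Tnf the Pol2 peak was 111 bases wide, and the nearest GR peak was 33867 bases away. Of 14 genes of the neuromuscular junction, 6 had both and 5 had neither. Ache, the acetylcholinesterase gene, had GR without Pol2, and Musk and Rapsn, which gather acetylcholine receptors, had Pol2 without GR. Of 30 developmental transcription factor genes, 22 had neither and 4 had both. Hoxa10 had GR without Pol2, and Hoxd8 and Hoxd9 had Pol2 without GR, with their nearest GR peaks 120569 and 118636 bases away.

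Of the 24 gene lists, the endothelial one had the most members with Pol2 without GR. Of 12 endothelial genes 5 were in that class, which held 6.71% of all genes, with 1 in the class with both (Esam) and 6 with neither. The 5 were Pecam1 and Eng, which encode surface proteins, Flt1, a VEGF receptor gene, Egfl7, a secreted factor gene, and Cldn5, a tight junction gene. Their Pol2 peaks were narrow, at 109 bases in Pecam1, 161 in Eng, 143 in Flt1, 201 in Egfl7 and 113 in Cldn5, and none of the 5 counted as occupied when just the widest 50% of Pol2 peaks were used. Immune genes (1 of 12, Cd68), adipocyte genes (1 of 10, Fabp4) and satellite cell genes (2 of 11, Cdh15 and Notch3) had fewer in the class. Of fibro-adipogenic genes (12) and Schwann cell genes (10) none were in it, and 7 and 3 had both. All 12 liver genes had neither. Snap25, a synaptic gene, and Heyl, a Notch target gene of satellite cells, had GR without Pol2. The genes of these cell types were named after their values were seen.

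Among all genes with GR without Pol2, the 10 with the widest GR peak at a TSS were Rab4b (678 bases), Tjp3 (579), Eda2r (543), Ssc5d (516), Rfx2 (491), Vrk1 (487), Relb (480), Sdk1 (478), Magi1 (471) and Bcl2 (469). Rab4b encodes a GTPase of endosome recycling, Tjp3 a tight junction scaffold, Eda2r a receptor of the TNF receptor family, Rfx2 a transcription factor of ciliated cells, Vrk1 a nuclear kinase, Magi1 a junction scaffold and Bcl2 an inhibitor of apoptosis. The nearest Pol2 peak was 1347 bases away at Tjp3, 2836 at Ssc5d and 7054 at Rab4b, and 216211 at Magi1, 225371 at Vrk1, 410966 at Sdk1 and 771503 at Eda2r. Of the 10, all but Ssc5d had an H3K4me3 peak and all but Tjp3 had an H3K27ac peak within 1 kb of a TSS. Wide GR peaks at marked promoters thus occurred far from any Pol2 peak.

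Among genes of at least 2 kb with Pol2 without GR, the largest coverage was 40.6% at Chrna10, a nicotinic receptor subunit gene, followed by Stk16 (33.3%), Myh1 (33.1%), Gm21988 (23.2%), Sdr39u1 (20.6%), Smim24 (20.03%), Gm49380 (19.6%), Lmod2 (18.1%), Nr2c2ap (17.3%) and Use1 (16.6%). Lmod2 encodes an actin filament nucleator of muscle and Use1 a protein of vesicle fusion. Coverage includes Pol2 peaks of neighbouring and overlapping genes. Stk16 and Smim24 had no GR peak at a TSS but 6 and 7 within 25 kb. Chrna10, Myh1 and Smim24 had no H3K4me3 peak at a TSS.

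Genes with more GR peaks close by had more of their length under Pol2, as the number of GR peaks rose with the share of the gene covered by Pol2. Across 21938 genes, Spearman's rho between GR peaks within 25 kb of a TSS and Pol2 coverage of the gene span was 0.634, given as a description, since genes are not independent replicates and neighbours share peaks. Both measures include peaks at the TSS, where GR and Pol2 were largely shared, so this value in part restates that sharing. Among genes with Pol2 at a TSS, rho was 0.273. Pol2 peaks reached into 46.4% of all gene spans. Genes with 0 GR peaks had Pol2 on 7.98% of gene spans, genes with 1 on 61.04%, genes with 5 to 9 on 84.2% and the 15 genes with 20 to 38 on 100%. The median coverage was 0% with 0 GR peaks, 0.243% with 1, 0.497% with 2, 0.837% with 3 to 4, 1.43% with 5 to 9, 3.08% with 10 to 19 and 8.80% with 20 to 38. The value was similar across gene lengths: rho was 0.647, 0.644, 0.601 and 0.636 from the shortest to the longest of 4 equal groups.

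The rank correlation was weaker within the classes than across them. Spearman's rho was 0.271 for genes with both, 0.177 for GR without Pol2, 0.234 for Pol2 without GR and 0.180 for neither. When GR peaks that overlapped a Pol2 peak were left out, it was 0.241, and when Pol2 coverage was measured farther than 1 kb from every TSS of the gene, it was 0.300. With GR peaks outside the gene and over 1 kb from its TSS it was 0.362. It was positive in all these cases.

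**Figure D4:**
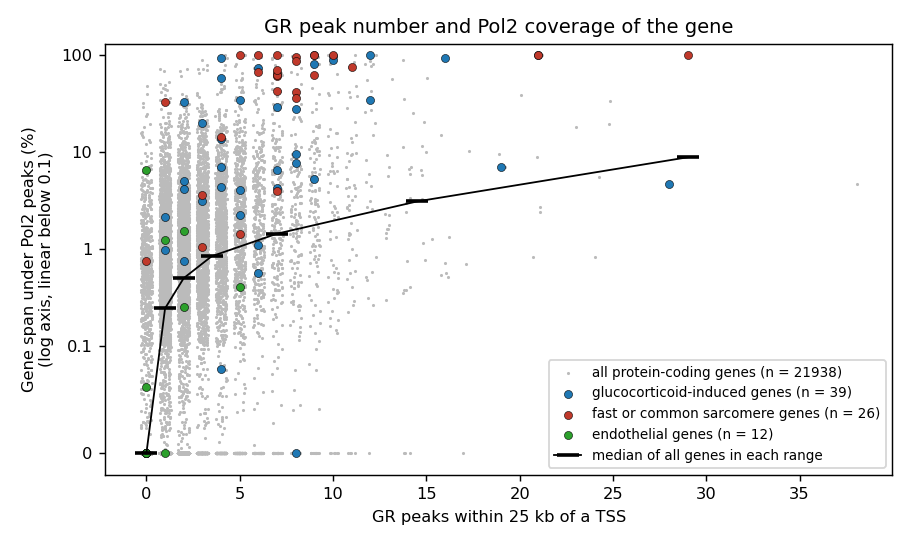
GR peaks within 25 kb of a TSS (horizontal, jittered for the grey points) and percent of the gene span under Pol2 peaks (vertical, log axis that is linear below 0.1) for all protein-coding genes, with 3 gene lists coloured and the median of each range of GR peak number as black bars. The medians rise to 8.80% for 20 to 38 GR peaks, against 0% for genes with none, and fast or common sarcomere genes lie mostly above them.

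Genes covered nearly end to end by Pol2 all carried GR. At least 90% of the span was covered in 25 genes (0.114% of all genes), and all 25 were in the class with both. That class held 40.3% of all genes, but GR was also at 98.5% of genes in the widest 10% by Pol2 peak. The spans of the 25 ran from 114 bases (Gm37419) to 22418 (Myh4). These genes had 4 to 29 GR peaks within 25 kb, with a median of 9, while the median over all genes was 1. Among them were genes of the fast sarcomere (Acta1, Atp2a1, Myh4, Pvalb, Tcap, Tnnc2, Tnni2 and Tnnt3), of glycolysis (Aldoa, Eno3 and Pgam2) and of the glucocorticoid-induced list (Cebpd, Ddit4, Gadd45g, Pdk4, Trim63 and Txnip). Of the 245 distinct GR peaks near these 25 genes, 86.1% overlapped a Pol2 peak by at least 1 base (81.2 to 90.2%), while 51.3% of all GR peaks did. The genes were chosen by their Pol2 coverage, so a high overlap follows in part from that choice. The GRE letters were in 3.67% of the 245 (1.69 to 6.86%) and in 5.52% of all GR peaks, a share inside that interval. By ranges of coverage, the median number of GR peaks that overlapped no Pol2 peak was 0 in genes with no Pol2 on the span and 1 in genes with at least 90% covered.

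The 10 genes of the class with both that had the most GR peaks lay partly in shared neighbourhoods. Ties were settled by gene length, the longest first, which left out Txnip, Polr3gl and Mrpl23, with 21 each. Tns1, a focal adhesion gene of 214219 bases, had 38, of which 12 overlapped Pol2, and its coverage was 4.69%. Atp2a1, which encodes the calcium pump of fast fibres, had 29, all overlapping Pol2, and was covered by 100%. Its neighbours Rabep2 and Sh2b1 had 25 and 24, with coverages of 33.8% and 5.44%. Tnnt3, a fast troponin gene, had 21 at 99.4% coverage, and its neighbour Lsp1 had 25 at 19.3%. Gm16253, close to Txnip, had 23 at 17.9%. Gse1 and Nfix, a transcription factor gene, had 24 and 21 GR peaks at coverages of 0.816% and 0.830%, and 6 of these overlapped Pol2 at each gene. Fkbp5, with 28, completed the 10. Many GR peaks thus stood either on Pol2, as at Atp2a1, or largely off it, as at Tns1, Gse1 and Nfix.

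Some genes had many GR peaks and no Pol2 on the gene. The 5 with the most were Armc12 with 17, Aldh1l1, Cbarp and E030018B13Rik with 14 each, and Il12rb1 with 12. Cbarp was in the class with both, since a Pol2 peak of 238 bases lay 423 bases from a TSS, outside the gene span. Armc12 lies beside Fkbp5, Aldh1l1 beside Klf15, E030018B13Rik within the span of Klf13, and Il12rb1 beside Arrdc2. Klf15, Klf13 and Arrdc2 were in the class with both and had 8, 13 and 9 GR peaks. Pol2 peaks outside the gene overlapped 13 of the GR peaks at Armc12, 4 at Aldh1l1, 11 at Cbarp, 10 at E030018B13Rik and 8 at Il12rb1. No gene had at least 90% coverage without a GR peak within 25 kb.

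The X chromosome departed from the autosomes. This split was chosen after the values were seen. Of 264 X-linked genes with Pol2 at a TSS, 135 had GR (51.1%, 44.9 to 57.3%), while on the autosomes 8714 of 10055 did (86.7%, 86.0 to 87.3%). Single autosomes ranged between 80.1% on chromosome 13 and 90.9% on chromosome 16. Of 183 genes on the Y chromosome, 3 had Pol2 without GR and 0 had both. The sex of the mice is not given. The 3 Y-linked genes with Pol2 peaks bear on it, but sex was not inferred from them. The number of X copies per nucleus was thus not established, and its part in the difference was not tested. The reverse share did not differ beyond its interval: 92.5% of X-linked genes with GR had Pol2 (86.9 to 96.2%) and 93.0% of autosomal ones. X-linked genes also had narrower Pol2 peaks, with a median widest peak of 196.5 bases against 275 on autosomes, narrower GR peaks (193.5 against 282 bases) and a lower authors' H3K4me3 fold (19.8 against 33.98). In genes with Pol2 sorted into 3 equal groups by the width of that peak, GR was present on the X chromosome and the autosomes at 35.4% and 73.4% of genes with narrow peaks, 68.2% and 89.6% with middle ones, and 72.2% and 96.6% with wide ones. The X-linked share was lower in each of these groups. The groups are broad, and 144 of the 264 X-linked genes fell in the narrow one, so the part of peak width in the difference was not tested beyond this. Among genes with H3K4me3, GR was at 35.5% of X-linked and 70.8% of autosomal genes, Pol2 at 63.7% and 76.5%, and H3K27ac at 75.7% and 84.6%.

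**Figure D5:**
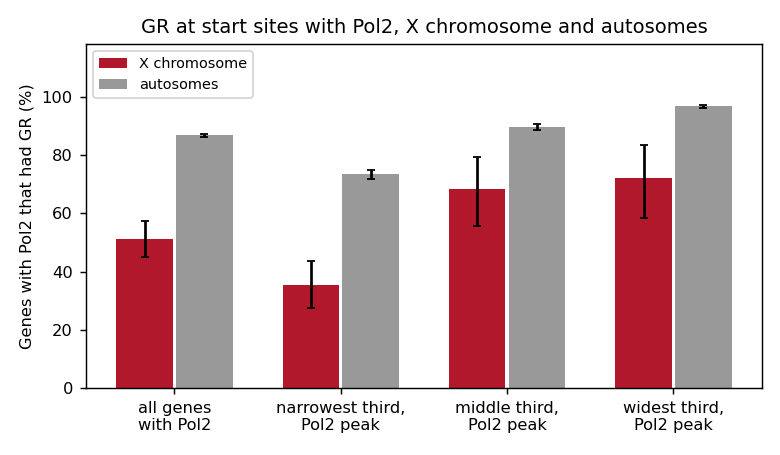
Percent of genes with Pol2 at a TSS that also had GR, on the X chromosome (red) and on the autosomes (grey), for all such genes and by 3 groups of the width of the widest Pol2 peak, with exact 95% intervals over genes. The X-linked share was 51.1% against 86.7% over all such genes and lower in each width group.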

How the data were processed

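Chromatin of mouse skeletal muscle was immunoprecipitated with 6 antibodies, 1 library each, beside 2 inputs; libraries came from 10 ng of DNA and 7 PCR cycles, per the labels' protocols. Per the submitters' processing notes, the tools were MACS2, Bowtie 1.0.0 and bcl2fastq 2.17.1.14, on build mm10. The deposited lists hold peak positions in bases. For H3K4me3 and CTCF the authors also deposited a score, a linear fold (ratio) over the control, and a −log10 p-value and −log10 q-value per peak; just the fold was used. Thresholds of peak calling are not given in those notes, and the depth is unknown.

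The members and lists were chosen with earlier results of these data known. Genes and TSS came from GENCODE release M21 and sequence from GRCm38; all 427 list entries matched. GR peaks were counted by midpoint within 25 kb of any TSS; coverage is the percent of the gene span, first to last annotated base, under Pol2 peaks. Overlap meant at least 1 base. Shares carry exact 95% Clopper-Pearson intervals for counting error; reads copied by PCR, with no molecular identifiers, add error that these leave out. No test was made, since each group is 1 library. The genes named are the glucocorticoid-induced genes with the most GR peaks or outside the class with both; the 10 GR-without-Pol2 genes with the widest GR peak; the 10 Pol2-without-GR genes with the largest coverage; the 10 genes with both and most GR peaks; the 5 with most GR peaks and no Pol2 on the gene; and list members of the single-peak classes, of which a few are not reported here. Others were chosen after their values were seen. The placing of peaks was tested on simulated data. Work used Python 3.11.15, numpy 2.4.6, pandas 2.3.3, scipy 1.17.1 and pysam 0.24.0. Peaks on the mitochondrial genome were left out.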

Additional observations from a re-analysis of the deposited data

Results flagged for a closer look

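GR had 8 peaks on the mitochondrial genome, which the comparisons above leave out, and Pol2 had 1. They are named here as a signal outside the start sites of nuclear genes, and no peak list of an input was at hand to set beside them.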

How the results depend on the processing

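The sizes of the single-peak classes depended on peak width. With the widest 50% of GR peaks, GR without Pol2 fell to 225 genes and Pol2 without GR rose to 3773. With the widest 50% of Pol2 peaks they were 3168 and 500, so which of them is larger turned round. In the other settings (500 bases or 2 kb, midpoints, 1 TSS per gene, protein-coding transcripts, genes with H3K4me3, no other start site within 2 kb, autosomes) each class stayed within 1.5 times its size, and 8804 genes had GR and Pol2 at the same TSS. The rank correlation of GR peak number and Pol2 coverage was positive in all 11 alternatives. It was 0.685 with 10 kb, 0.580 with 50 kb, 0.643 with the 5' end alone, 0.300 for the span beyond 1 kb of a TSS, 0.241 for GR peaks off Pol2, 0.362 for GR peaks outside the gene, 0.273 for genes with Pol2 at a TSS, 0.709 for genes with no other start site within 25 kb, and 0.556 given length, number of TSS and neighbouring genes. Pol2 without GR held 3 endothelial genes with 1 TSS per gene or no other start site within 2 kb, and 0 with the widest 50% of Pol2 peaks. The autosomal setting was added after seeing the data. No paired analysis was possible because each antibody has 1 library. Widths stand in for peak strength, and the unknown depth limits what the absence of a peak means.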

Other observations

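Promoters of the classes also differed in letters not described above. CACGTG, the E-box bound by clock and growth factors, was in 10.7% of promoters with both peaks, 6.80% with GR without Pol2, 10.3% with Pol2 without GR and 7.75% of all promoters. TGACGTCA, bound by CREB, was in 3.53% of promoters with both, 2.11% with GR without Pol2 (1.16 to 3.52%), 4.62% with Pol2 without GR and 2.43% of all promoters. CCAAT, bound by NF-Y, was nearly even, at 38.9%, 37.3% and 40.8% in the 3 classes and 39.0% of all promoters. GGGCGG, bound by SP factors, was in 64.4%, 59.1% and 51.3%, against 43.0% of all promoters. It was thus the one set of letters among these 4 that was more frequent with GR without Pol2 than with Pol2 without GR.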
